A study of Mus musculus with 17 samples.

Results

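The mitochondrial ribosome is built largely from proteins that are encoded in the nucleus under the symbols Mrpl and Mrps. These genes were followed in germinal centre (GC) B cells of mice through anti-DEC-OVA-induced inertial cycling, and between cells with high and low CDK2 activity. Members were all genes whose symbol starts with Mrpl or Mrps and a digit, with pseudogenes left out. There were 78 of them among 21848 genes in the count tables, 49 with Mrpl names and 29 with Mrps names, and the rule uses the symbols alone. All 78 had enough unique molecular identifiers (UMIs) to be tested in both experiments described here.

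In the time course, CD45.1/1 recipients primed with OVA in alum received B1-8hi B cells, most of them Ly75-/- and a minor fraction DEC-205-sufficient, and were immunized with NP-OVA in the footpad. Mice labelled Day9DEC and Day10DEC had also received anti-DEC-OVA, an antibody that carries OVA to DEC-205 on the sufficient cells, at 7 days post-immunization (dpi). GC B cells were taken at 7 dpi (Day7, 9 mice), at 48 h from 6 untreated mice (Day9) and 9 anti-DEC-OVA-treated mice (Day9DEC), and at 72 h from 8 untreated (Day10) and 7 treated mice (Day10DEC). The study describes the cells profiled in this time course as the DEC-205-sufficient GC B cells. The mice were male and female, 5 to 12 weeks old, and came from 2 pools of hashtagged cells, a larger experiment with 25 mice and a smaller one with 14, each with every group. In the other experiment, all mice had received anti-DEC-OVA, and the GC B cells sorted from them carried a DHB–tdTomato reporter at Rosa26. By the methods they were with or without H2B-GFP, and which of the 2 in which mouse was not given in the sources used here. The study crossed its reporter mice to the B1-8hi receptor. For imaging it transferred such B cells, as a minor fraction, into hosts that formed GCs as in the time course. For the sort it points back to its earlier methods. The reporter leaves the nucleus as CDK2 becomes active. Cells were sorted by image at 72 h into populations labelled C and N. The study sorted cytoplasmic (CDK2hi) and nuclear (CDK2low) reporter, and C and N are read here as their initials, since the sources used here do not spell out the letters. C and N cells came from the same 7 mice but each was 1 library, so that population and library cannot be told apart. Age and sex of single mice were not given in the sources used here.

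Mitochondrial ribosomes translate the mRNAs of the small mitochondrial genome, which encode core subunits of the respiratory chain and the ATP synthase. Their rRNAs are made inside the organelle, whereas the proteins are translated in the cytosol and imported. The large subunit joins amino acids and the small subunit reads the mRNA, and many subunits have no bacterial relative. GC B cells alternate between selection in the light zone (LZ) and rapid division in the dark zone (DZ), and cells that divide need new mitochondrial protein for both daughters.

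Between 292 and 1045 cells per mouse in the time course, and between 278 and 1679 per mouse and population in C and N, passed the filters. These held 1984426 to 13373185 and 3988733 to 20394909 UMIs, respectively, and the libraries shared between 6 and 94 cell barcodes pairwise. Counts were summed per mouse, and the mouse was the replicate of every test. Levels are CPM, UMI counts scaled to a common library total, after TMM scaling, which sets the libraries to a common bulk of genes. They come from 5' ends and are not divided by length, so that levels are compared between groups and not between genes. A summed level does not separate more cells with a transcript from more transcript per cell. The pan-B markers Cd79a, Cd79b and Ms4a1 summed to between 2957 and 6910 CPM over all groups and the GC markers Bcl6, Fas, Mef2b, S1pr2, Rgs13 and Gcsam to between 1217 and 1606 CPM, whereas T cell markers did not exceed 47.5 CPM. Myeloid markers reached 136 CPM in 1 mouse at 7 dpi and 30.6 CPM in the mice of the other groups, and plasma cell markers (Prdm1, Sdc1, Xbp1, Jchain and Tnfrsf17) summed to between 732 and 2371 CPM. Most of the plasma cell sum was Jchain.

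The promoters of the members that differed most at 48 h are shown first. Each is the 250 bases upstream of the RefSeq gene start in GRCm38.p6, 5' to 3' on the gene's own strand, with motif matches in capitals. RefSeq entries were found for 69 of the 78 members.
Mrps18a (chr17:46110754-46111003, plus strand): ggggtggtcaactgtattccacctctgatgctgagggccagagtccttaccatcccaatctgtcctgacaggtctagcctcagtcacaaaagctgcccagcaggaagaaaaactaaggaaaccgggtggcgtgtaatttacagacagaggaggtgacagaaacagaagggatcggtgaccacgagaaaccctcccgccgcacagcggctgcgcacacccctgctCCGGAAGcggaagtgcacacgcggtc
Mrps22 (chr9:98601680-98601929, minus strand): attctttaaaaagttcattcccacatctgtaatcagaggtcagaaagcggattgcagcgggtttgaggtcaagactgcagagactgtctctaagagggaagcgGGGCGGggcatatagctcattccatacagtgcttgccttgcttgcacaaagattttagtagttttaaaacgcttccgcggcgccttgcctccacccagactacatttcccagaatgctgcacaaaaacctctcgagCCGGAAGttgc
Mrps10 (chr17:47368947-47369196, plus strand): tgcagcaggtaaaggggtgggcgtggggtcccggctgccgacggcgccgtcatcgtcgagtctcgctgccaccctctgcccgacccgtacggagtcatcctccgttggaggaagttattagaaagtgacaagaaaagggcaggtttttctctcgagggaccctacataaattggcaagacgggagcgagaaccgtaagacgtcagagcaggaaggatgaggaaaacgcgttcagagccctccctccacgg
Mrpl18 (chr17:12916092-12916341, minus strand): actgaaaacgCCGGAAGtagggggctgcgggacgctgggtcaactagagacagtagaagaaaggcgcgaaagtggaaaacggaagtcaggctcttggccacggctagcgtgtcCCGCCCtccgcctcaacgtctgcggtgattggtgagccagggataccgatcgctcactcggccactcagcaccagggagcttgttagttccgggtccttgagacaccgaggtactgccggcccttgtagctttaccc
Mrps5 (chr2:127587176-127587425, plus strand): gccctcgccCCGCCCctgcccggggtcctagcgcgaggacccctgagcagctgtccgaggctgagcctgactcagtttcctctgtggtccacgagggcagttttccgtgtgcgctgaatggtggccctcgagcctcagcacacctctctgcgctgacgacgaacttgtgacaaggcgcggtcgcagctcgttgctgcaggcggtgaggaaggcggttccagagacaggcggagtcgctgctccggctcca
Mrpl44 (chr1:79775768-79776017, plus strand): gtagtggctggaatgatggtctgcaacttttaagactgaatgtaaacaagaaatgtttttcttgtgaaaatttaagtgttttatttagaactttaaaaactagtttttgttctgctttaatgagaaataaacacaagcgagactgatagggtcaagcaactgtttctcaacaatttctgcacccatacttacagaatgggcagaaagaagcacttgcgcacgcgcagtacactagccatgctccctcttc
The motifs searched, 6 in all, were taken on both strands, over the 250 bases before and 50 after the start. They were CCGGAAG (ETS family), GCATGCGC (NRF1), AAGATGGC (YY1), CACGTG (E-box), TGACGTCA (CRE) and GGGCGG (SP1). CCGGAAG stood in 25 of 69 member promoters, 36.2%, against 9.12% of the promoters of all 27025 symbols in the table. Among its 30 matches in members, 27 lay between -100 and +50 around the start. AAGATGGC stood in 12 members (17.4% against 2.88% of all) and GCATGCGC in 8 (11.6% against 2.81%), and 37 members held at least 1 of these motifs (53.6% against 13.8%). The E-box stood in 5 members (7.25% against 7.24%), the CRE in 2 (2.90% against 1.88%) and GGGCGG in 34 (49.3% against 35.9%). Promoters of cytosolic ribosomal proteins held CCGGAAG in 37.3% and those of nuclear oxidative phosphorylation subunits in 23.5%. In the printed stretches, Mrps18a, Mrps22 and Mrpl18 carry CCGGAAG or its complement, while those of Mrps10 and Mrpl44 carry none of the motifs searched. These are matches of letters and were given no test. The promoters of all symbols were not limited to genes with enough UMIs to be tested here.

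The first question was whether the members differed between anti-DEC-OVA-treated and untreated mice at 48 h, when treated cells are in inertial cycling. The members were higher almost as a block. The summed level of the 78 genes was 8056 to 8324 CPM in 6 treated and 6602 to 7332 CPM in 4 untreated mice of the larger experiment. In the smaller experiment it was 7007 to 7317 CPM in 3 treated and 5721 to 5956 CPM in only 2 untreated mice. Treated mice thus lay above untreated mice within both experiments, and the experiments themselves differed in level. Of the 78 members, 70 were called higher (adjusted p under 0.05) and 0 lower, where 26.3% of all 10220 genes tested were called higher and 21.1% lower. Their median log2 difference was 0.27, a 1.2-fold level, against 0.01 over all genes tested. For 50 members, the treated mice were above all untreated mice within both experiments, which held for 14.2% of all genes, and for 0 members below them, against 8.84%.

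**Figure D1:**
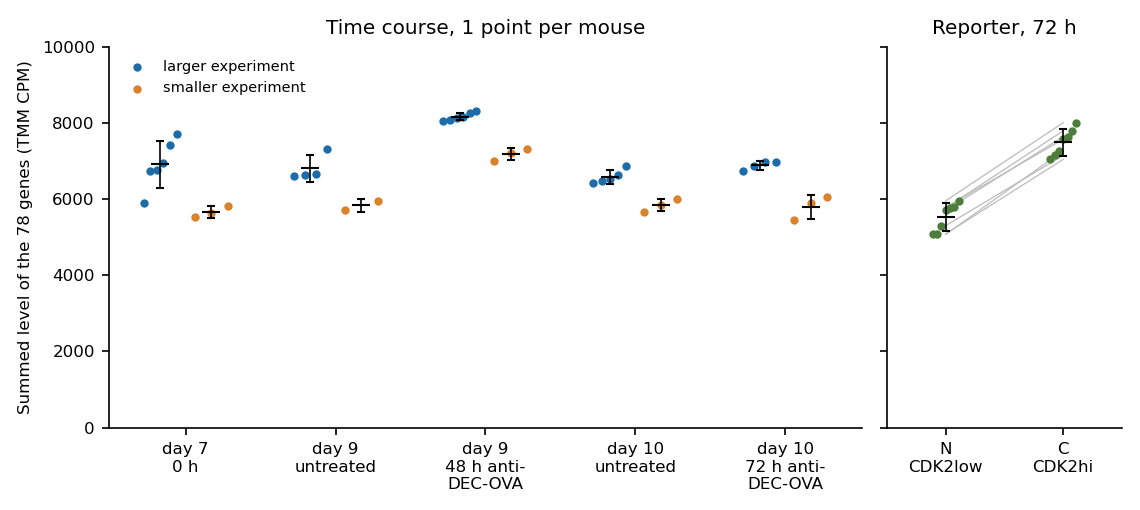
Summed level of the 78 mitochondrial ribosomal protein genes in each mouse (CPM after TMM scaling), by group; points are mice, horizontal lines and bars are mean and SD, and lines join N and C cells of 1 mouse. Treated mice at 48 h sit at 7007 to 8324 CPM, and each line rises from N to C.

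Mrps18a had the largest difference at 48 h. It is named for the small subunit but sits in the large one in known structures. Its level was 122, 125 and 138 CPM (lowest, median and highest mouse) in untreated and 182, 188 and 198 CPM in treated mice. No treated mouse reached down to the untreated ones, and the level was 1.49-fold higher (log2 difference 0.57, SE 0.0646, adjusted p = 4.56e-09). Mrpl18, a subunit of the central protuberance, had 209, 253 and 289 CPM in untreated and 308, 348 and 366 CPM in treated mice. These ranges did not overlap either (log2 difference 0.43, SE 0.0554, adjusted p = 4.77e-08). Mrpl51, a large-subunit protein without a bacterial relative, went from 131, 145 and 159 to 173, 200 and 208 CPM, again with no overlap (log2 difference 0.42, SE 0.0582, adjusted p = 2.39e-07).

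Among small-subunit genes, Mrps22, specific to mitochondria, had 32.8, 35.0 and 44.9 CPM in untreated and 44.1, 51.8 and 55.3 CPM in treated mice. The ranges touched across experiments but not within either (log2 difference 0.48, SE 0.0789, adjusted p = 4.2e-06). Mrps10, a protein of the head of the small subunit, was 0.44 higher (SE 0.0695), and Mrps5, of the conserved S5 family, 0.43 higher (SE 0.0746). Mrps12, a part of the decoding centre, had 56.2, 59.5 and 73.1 CPM in untreated and 70.2, 80.0 and 92.1 CPM in treated mice (log2 difference 0.38, SE 0.0653, adjusted p = 6.49e-06). Its highest untreated mouse was above its lowest treated mouse, but within each experiment the groups were apart. The 12 members with the largest differences also held Mrpl44, which has the fold of an RNase III (0.42), Mrpl46 of the central protuberance (0.40), Mrpl35 (0.39), Mrpl39 (0.39) and Mrpl28 (0.37), all called higher.

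**Figure D2:**
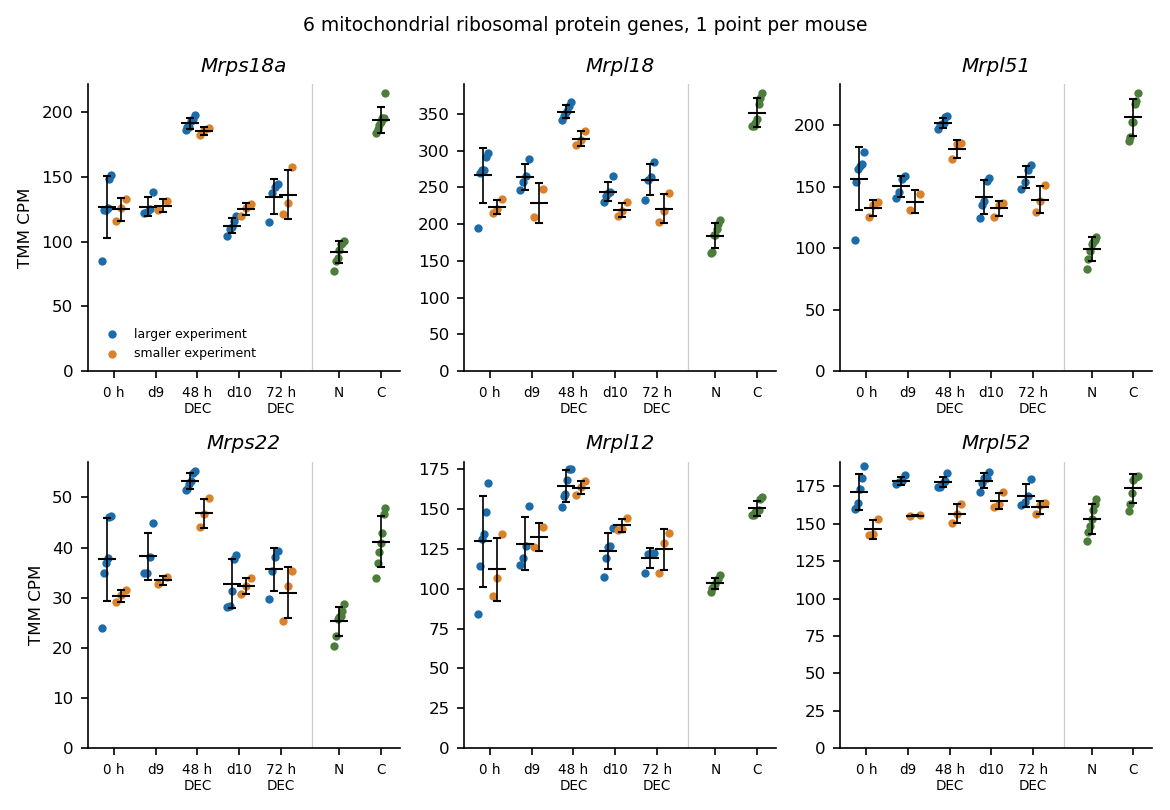
Level per mouse (CPM after TMM scaling) of Mrps18a, Mrpl18, Mrpl51, Mrps22, Mrpl12 and Mrpl52 in the 7 groups; points are mice and horizontal lines with bars are mean and SD. Mrps18a lies at 182 to 198 CPM in treated mice at 48 h and at 184 to 215 CPM in C cells, while Mrpl52 overlaps between treated and untreated mice.

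The difference was spread over the structure. Of genes with Mrpl names 43 of 49 were called higher (median log2 difference 0.26), and of those with Mrps names 27 of 29 (0.28). All 8 members placed in the head of the small subunit and all 6 around the exit tunnel, through which the new peptide leaves, were called higher, with medians of 0.26 and 0.23. The stalk, which recruits translation factors, had 4 of 5, and the central protuberance, which contacts the small subunit and tRNAs, 6 of 9. Mrpl12 of the stalk had 115, 127 and 152 CPM in untreated and 151, 164 and 175 CPM in treated mice, and was called higher (0.34, SE 0.0815, adjusted p = 7.02e-04) although the groups overlapped. Mrpl58, a peptidyl-tRNA hydrolase built into the large subunit, was higher by 0.25 (SE 0.0530), and Mrps36, which is found in the oxoglutarate dehydrogenase complex in place of the ribosome, by 0.21 (SE 0.0454).

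The 8 members not called at 48 h were Mrps6, Mrpl19, Mrpl38, Mrpl3, Mrps16, Mrpl48, Mrpl53 and Mrpl52. Mrpl52, of the central protuberance, had 155, 177 and 182 CPM in untreated and 151, 175 and 184 CPM in treated mice. The groups covered the same range, and the log2 difference was -0.00 (SE 0.0361, 95% interval -0.07 to 0.07). Mrpl3, a conserved protein of the large subunit, differed by 0.10 (adjusted p = 0.0688), Mrps16 by 0.09 (adjusted p = 0.104) and Mrpl48 by 0.07 (adjusted p = 0.388). Mrpl30 was the called member with the smallest value (0.11, adjusted p = 0.0486). Mrpl53 had a median of 2.25 CPM in untreated and 2.33 CPM in treated mice, and its difference of 0.06 had an SE of 0.2146, so that a difference of the size seen in other members was not detectable at this depth.

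**Figure D3:**
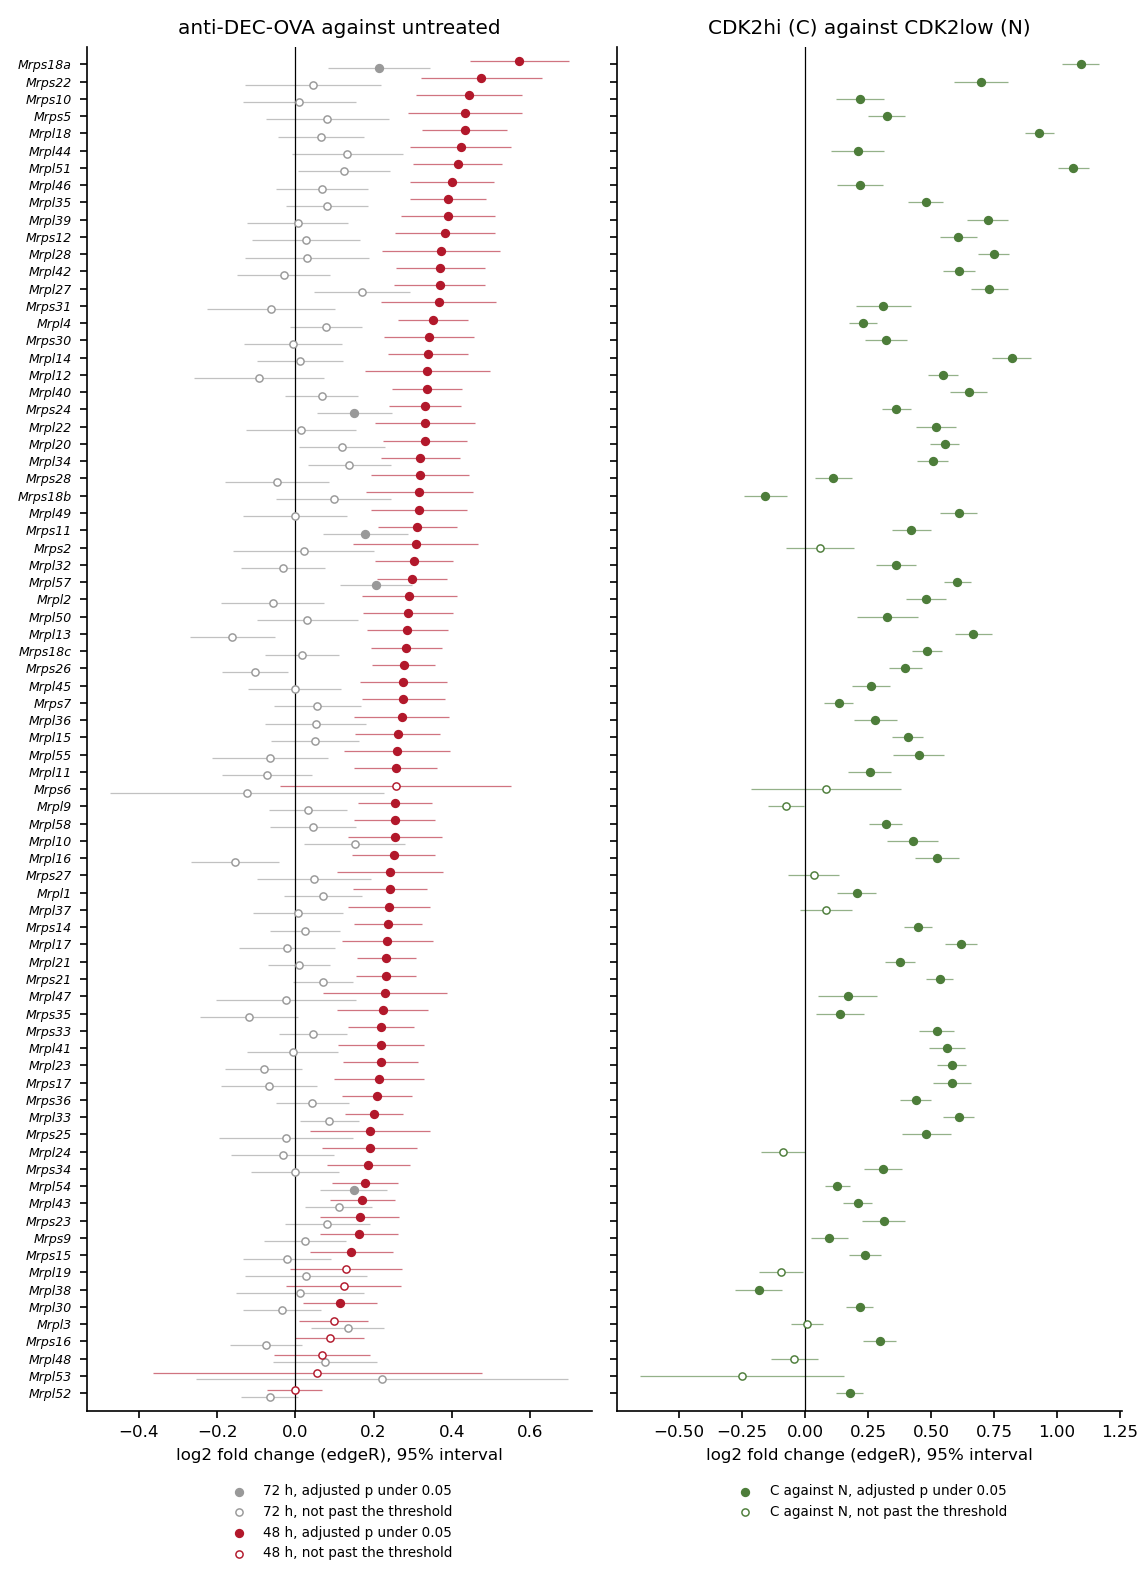
Log2 difference of each of the 78 members with its 95% interval; the left panel has anti-DEC-OVA against untreated mice at 48 h (red) and 72 h (grey), the right panel C against N cells. At 48 h nearly all members lie right of 0 with a median of 0.27, at 72 h they lie around 0 with a median of 0.03, and C against N has a median of 0.36.

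Treated and untreated cells at 48 h differed in more than these genes. The share of cells in G1 was 16.5% to 24.1% in treated and 45.4% to 56.9% in untreated mice. Mean UMIs per cell were 12798 to 16871 against 7323 to 10166, and members took 88.3 to 132 UMIs per cell in treated and 43.8 to 72 in untreated mice. Markers of naive or memory B cells (Cd38, Ccr6, Fcer2a, Klf2 and Ccr7) summed to 91.8 to 196 CPM in treated and 216 to 399 CPM in untreated mice, and 3 of 5 were called lower. Most of this sum was Fcer2a. Of 6 GC markers, 2 were called higher and 3 lower. All 3 T cell markers with enough counts for a test were called lower, from a sum of 5.97 to 9.08 CPM in untreated to 0.398 to 4.80 CPM in treated mice, and Cd3e and Cd3g were at 0 in 3 treated mice each. All 3 pan-B markers were called lower (median log2 difference -0.33), and of 4 plasma cell markers tested 1 was called higher and 0 lower, with sums of 732 to 1487 CPM in untreated and 1203 to 2026 CPM in treated mice. The share of cells with the B1-8hi pairing of heavy and light chain was 70.5% to 77.7% in treated and 62.3% to 67.4% in untreated mice of the larger experiment, and 53.1% to 58.0% against 34.7% to 38.8% in the smaller. A cell counted only where 1 productive contig of each chain of the pairing was found. The remaining cells thus include cells with missing contigs. With that pairing required, 49 members were called higher, against 16.8% of all genes, with a median of 0.19. The part of the other shifts in the members' difference was not tested. With each experiment fitted alone, 59 members were called higher in the larger, against 18.2% of all genes, and 39 in the smaller, against 10.7%. Of the members, 37 were called higher in both and 74 of 78 were above 0 in both. The shares of all genes called higher or above 0 in both were not counted. The order of the members was partly shared between these separate sets of mice, with a Spearman rho of 0.57 across the 78 genes, which are not independent, and 6 of the 12 highest in common.

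At 72 h, few members passed the test between anti-DEC-OVA-treated and untreated mice. Over all cells, 5 members were called higher and 0 lower, near the 4.67% and 3.88% of all genes, and the median log2 difference was 0.03. The 5 were Mrps18a (0.21, SE 0.0666, adjusted p = 0.0350), Mrpl57 (0.21, SE 0.0465, adjusted p = 0.00284), Mrps11 of the small-subunit platform (0.18, SE 0.0558), Mrps24 of the small-subunit head and Mrpl54 near the stalk. Mrpl57, a small protein of the large subunit, had 115, 170 and 181 CPM in untreated and 125, 199 and 223 CPM in treated mice, with wide overlap. For 0 members did the treated mice all lie above or all below the untreated mice within both experiments, which held for 0.910% and 1.10% of all genes. At the low end, Mrpl13 was at -0.16 (adjusted p = 0.0622) and Mrpl16 at -0.15 (adjusted p = 0.0929), and neither was called. Mrpl53 had the highest value, 0.22, with an SE of 0.2426. Among G1 cells alone, 10 members were called higher at 72 h, against 3.74% of all genes, with a median of 0.15, and in S and G2M cells 1 each, against 2.65% and 1.97%. Leaving out 1 mouse at a time gave between 1 and 7 calls, with 3 or fewer without any 1 of untreated mice 3, 4, 5 and 7 or treated mice 1, 2, 3, 4 and 5. Here and below, mice are numbered by their order within a group, not by their labels.

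From 48 h to 72 h after anti-DEC-OVA, when inertial cycling subsides, 70 members were called lower and 0 higher, against 26.8% and 22.3% of all genes. This comparison uses the treated mice of both earlier comparisons. The median log2 difference was -0.27, and for 46 members all 72 h mice lay below all 48 h mice within both experiments, against 14.8% of all genes, and for 0 members above them, against 7.73%. Mean UMIs per cell were 12798 to 16871 at 48 h and 6501 to 9986 at 72 h, and with cells thinned to 2871 UMIs and shallower cells left out 29 members were called lower, against 15.4% of all genes (median -0.16). The share of G1 cells was 16.5% to 24.1% at 48 h and 37.0% to 57.0% at 72 h, all 3 pan-B markers were called higher at 72 h (median log2 difference 0.35), and 3 of 4 plasma cell markers were called lower (median -0.78), from sums of 1203 to 2026 CPM to 829.3 to 1206 CPM. The part of these shifts in the members' fall was not tested. Mrps22 fell by 0.58 (SE 0.0795, adjusted p = 1.12e-07), from 44.1, 51.8 and 55.3 CPM to 25.4, 35.3 and 39.4 CPM, with no overlap. Mrps18a fell by 0.48, from 182, 188 and 198 CPM to 115, 138 and 158 CPM. Mrps31 of the small-subunit head fell by 0.47, Mrps6 by 0.46, Mrpl18 by 0.46 and Mrpl42 by 0.45. Mrpl12 fell by 0.43 and Mrps12 by 0.37, whereas Mrpl58 and Mrps36 fell by 0.15 and 0.21. At the other end, Mrpl3 (-0.02), Mrpl52 (-0.03), Mrpl48 (-0.08), Mrpl43 (-0.08), Mrps9 (-0.12) and Mrpl53 (0.06) were not called.

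The treatment effect itself was larger at 48 h than at 72 h for 49 members and smaller for 0, where 18.5% and 13.0% of all genes were called. The median difference between the effects was 0.24 on the log2 scale. The count was 15 with thinned cells, against 9.93% of all genes, 17 with B1-8hi pairing required (9.12%), 17 with no term for the experiment (7.67%), 12 in the larger experiment alone (10.3%) and 11 in the smaller (4.16%). It was largest for Mrpl13, a conserved large-subunit protein, at 0.45 (SE 0.0763, adjusted p = 3.35e-05). Mrpl13 had 74.1, 81.0 and 86.1 CPM in untreated and 87.9, 100.1 and 107.5 CPM in treated mice at 48 h, which did not overlap. At 72 h the order was the other way, with 75.8, 84.4 and 97.7 CPM in untreated and 68.4, 76.6 and 78.5 CPM in treated mice, which did. Mrps10 (0.43), Mrps22 (0.43), Mrpl12 (0.43), Mrps31 (0.43) and Mrpl16 (0.41), a protein close to the tRNA sites, followed. Mrpl54 (0.03), Mrpl48 (-0.01), Mrpl3 (-0.04) and Mrpl53 (-0.17) were not called.

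In untreated mice, 0 members were called between 7 and 10 dpi in either direction with edgeR, and 1.79% and 2.62% of all genes were called higher and lower. At an unadjusted p under 0.05 there were 4 higher and 10 lower, against 7.33% and 10.8% of all genes, and DESeq2 called 1 higher and 3 lower after adjustment, against 2.41% and 2.48%. The median turned to 0.06 in the smaller experiment alone. Without mouse 8 at 10 dpi, edgeR called 4 lower, against 2.94%. The median log2 difference was -0.04, the lowest was Mrpl34 (-0.16, adjusted p = 0.0561) and the highest Mrps10 (0.19, adjusted p = 0.11). Mrpl34 had 66.9, 99.1 and 106 CPM at 7 dpi and 59.8, 84.9 and 95.4 CPM at 10 dpi, so that most of its values overlapped.

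C and N cells also differed in most members. All sorted cells were used with no call of zone, whereas the study compared CDK2hi and CDK2low among cells with a DZ profile. In untreated GCs the study found mostly nuclear reporter in LZ cells. The share of LZ cells in C and N was not measured here. The summed level of the members was 7048 to 8013 CPM in C and 5078 to 5958 CPM in N cells, with no overlap. In C, 66 members were called higher and 2 lower (median log2 difference 0.36), against 36.5% and 38.6% of 10120 genes, whose median was -0.02. For 44 members all C samples lay above all N samples, against 22.5% of all genes, and for 0 members below, against 17.4%. Without the TMM factors, by library size alone, 46 members were called higher and 11 lower, against 23.8% and 57.5% of all genes. The median over all genes then moved to -0.22 and that of the members to 0.16. A change of scaling moves all genes by nearly the same amount. The distance between the medians, 0.39 with either scaling, was therefore bound to hold. At 48 h the call split of all genes also turned with the library size alone, from 26.3% higher and 21.1% lower to 18.5% and 30.1%, while 62 members were called higher and 0 lower.

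The genes that led were in part those of the time course. Mrps18a had 77.6, 93.9 and 101 CPM in N and 184, 193 and 215 CPM in C cells. The level was 2.13-fold higher in C (log2 difference 1.09, SE 0.0374, adjusted p = 5.25e-19), and higher in 7 of 7 mice. Mrpl51 had 82.8, 103 and 109 CPM in N and 187, 203 and 226 CPM in C cells (log2 difference 1.07, SE 0.0306), and Mrpl18 had 161, 185 and 205 CPM against 333, 343 and 379 CPM (0.93, SE 0.0286). All of these ranges were far apart. Mrpl14, a conserved protein at the subunit interface, was 0.82 higher, Mrpl28 0.75 and Mrpl27, whose bacterial relative reaches the peptidyl transferase centre, 0.73. The decoding protein Mrps12 was 0.61 higher, the stalk protein Mrpl12 0.55, Mrps36 0.44 and Mrpl58 0.32, each in 7 of 7 mice.

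By name, 41 of 49 Mrpl genes were called higher and 1 lower (median 0.41), and 25 of 29 Mrps genes higher and 1 lower (0.32). Calls came to 8 of 8 in the small-subunit head, 5 of 6 around the exit tunnel, 4 of 5 in the stalk and 7 of 9 in the central protuberance, where 1 more was lower. The 2 members called lower in C were Mrpl38 of the central protuberance and Mrps18b, a paralog of Mrps18a. Mrpl38 had 29.7, 33.1 and 42.5 CPM in N and 25.3, 30.4 and 32.5 CPM in C cells (log2 difference -0.18, SE 0.0471, adjusted p = 0.00109). Mrps18b had 43.9, 50.5 and 55.0 CPM in N and 38.1, 43.4 and 51.3 CPM in C cells (-0.16, SE 0.0427, adjusted p = 0.00187). The ranges of both overlapped, but C was below N in each of the 7 mice. Mrpl19 (-0.10, adjusted p = 0.0520), Mrpl24 (-0.09), Mrpl9 (-0.08) and Mrpl53 (-0.25, SE 0.2070) were not called.

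C and N cells stood far apart in cycle phase, called from marker genes with the study's scoring function. Each library was scored on its own, against control genes chosen by that library's levels. The same phase name therefore need not cover the same cells in C and N, and this limits each comparison within a phase. G1 made up 12.4% to 19.3% of C and 52.9% to 63.3% of N cells, and G2M 45.5% to 57.1% and 6.79% to 12.6%. Mean UMIs per cell were 9885 to 12147 in C and 11671 to 15157 in N cells. Markers of naive or memory B cells summed to 101 to 183 CPM in C and 299 to 439 CPM in N cells, most of it Fcer2a. All 4 with enough counts for a test were called lower, as were all 3 pan-B markers and both myeloid markers tested (median log2 difference -1.07). Among GC markers, in CPM without TMM factors, Bcl6 had 225 to 271 CPM in C and 372 to 432 CPM in N cells. Fas and S1pr2 were also lower in C without overlap, Gcsam was higher without overlap, and Mef2b and Rgs13 overlapped. T cell markers reached 1.69 CPM in C and 47.5 CPM in N cells, and none had enough counts for a test. The median share of mitochondrial UMIs was 2.97% to 3.42% in C and 3.35% to 3.88% in N cells, and lower in C in each mouse. The part of these shifts in the C and N difference was not tested, but the members were compared again within each phase.

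Within G1 cells, 73 of 76 members tested were called higher in C and 1 lower, against 30.9% and 31.6% of all genes, with a median log2 difference of 0.61. Within S cells, 65 of 77 were called higher and 0 lower, against 30.2% and 32.0% of all genes (median 0.38). Within G2M cells, 19 of 76 were called higher and 15 lower, close to the 25.4% and 25.2% of all genes (median -0.05). The summed level, here in CPM without TMM factors, was 7053 to 7769 CPM in C and 4991 to 5796 CPM in N cells in G1, and 6251 to 7111 CPM in C and 6203 to 7403 CPM in N cells in G2M, where the ranges overlapped. Compared within mice, the G2M level without TMM factors was lower in C than in N in all mice but 1. That mouse had 6298 CPM in C and 6203 CPM in N. By library size alone, the median log2 difference of all genes over all cells was also below 0 (-0.22). This order within mice was not examined with TMM factors. Few N cells were in G2M, with 24 to 120 per mouse. Both members that were lower over all cells changed sign between phases, with Mrps18b at 0.28 in G1 and -0.91 in G2M cells and Mrpl38 at 0.41 and -0.89, and each of the 4 values was called. In all, 14 of the 76 members tested in both phases were called higher in G1 and lower in G2M cells. The share of all genes with this pattern was not counted. Mrpl51 (0.71), Mrpl14 (0.72), Mrpl18 (0.59), Mrpl28 (0.53) and Mrps18a (0.51) were called higher in C cells in G2M too. Mrpl36 is itself part of the S phase score, so that its values within phases are not independent of the phase calls.

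**Figure D4:**
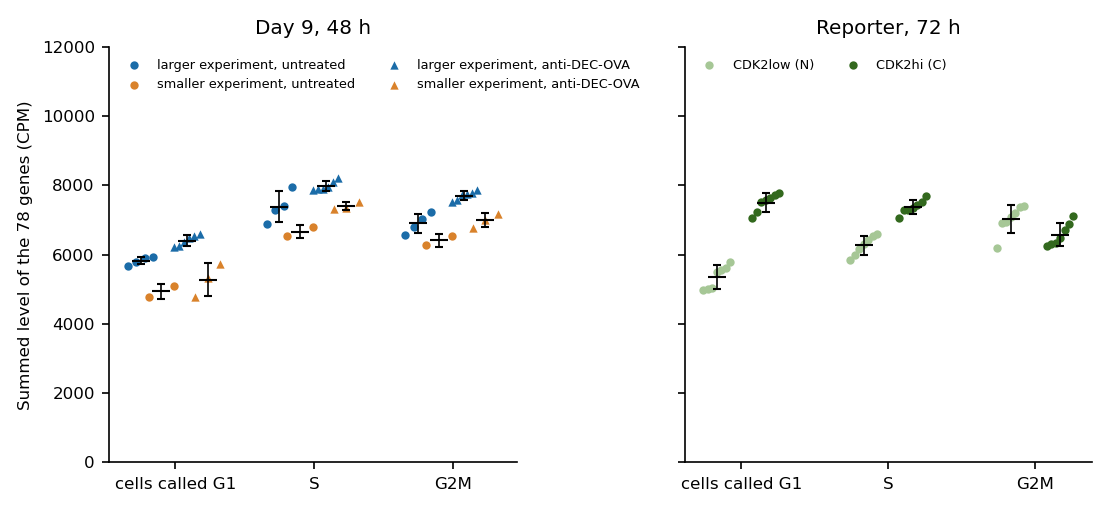
Summed level of the members (CPM without TMM factors) among cells called G1, S or G2M, per mouse, for the 48 h mice without and with anti-DEC-OVA and for N and C cells; points are mice and bars are mean and SD. In G1, C cells lie at 7053 to 7769 CPM and N cells at 4991 to 5796 CPM, whereas in G2M their ranges overlap.

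At 48 h after anti-DEC-OVA, calls were fewest in G1, where treated mice also had the smallest share of their cells. Of the members tested, 7 of 76 were called higher in treated mice among G1 cells, against 4.22% of all genes, 21 of 77 among S cells, against 5.85%, and 40 of 77 among G2M cells, against 9.92%, and 0 were called lower in any phase, against 4.23%, 5.94% and 8.41% of all genes. The medians were 0.13, 0.14 and 0.20, all below the 0.27 over all cells. Mrps18a was called higher in all 3 phases (0.27, 0.37 and 0.30 in G1, S and G2M), while Mrps22 was at 0.09, 0.19 and 0.35 and was called in G2M alone. Among G1 cells, 0 members were called lower from 48 h to 72 h after treatment (median 0.00), against 3.95% of all genes, and 0 had a larger effect at 48 h than at 72 h (median 0.01), against 2.02%. With cells of the time course thinned to 2871 UMIs and shallower cells left out, which kept 21331 of 23698 cells, 45 members were called higher at 48 h, against 17.5% of all genes.

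The time course and the CDK2 sort shared no mice, and 64 members were called higher in both, 91.4% of the 70 at 48 h and 97.0% of the 66 in C. Over all 10040 genes tested in both, 87.5% of genes higher at 48 h were higher in C and 63.5% of those higher in C were higher at 48 h. Across the 78 members, which are not independent, the log2 differences had a Spearman rho of 0.48, against 0.77 across all genes. Of the 12 highest in each, 6 were in common. Mrps18b, lower in C, had been higher at 48 h (0.32). Mrpl52, level at 48 h, was higher in C (0.18). Members with CCGGAAG in the promoter had medians of 0.25 at 48 h and 0.51 in C against N, and the 44 without it 0.28 and 0.34.

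Other genes that make or serve the mitochondrial ribosome were read beside the members. Its 5 subunits under other names were all called higher at 48 h and in C, namely Dap3 (0.33 and 0.45), Chchd1 (0.33 and 0.54), Aurkaip1 (0.24 and 0.47), Gadd45gip1 (0.34 and 0.28) and Ptcd3 (0.19 and 0.16). Of 26 assembly factors, 8 were called higher and 0 lower at 48 h (median 0.11), and 6 higher and 9 lower in C (-0.06), where the shares of all genes were 26.3% and 21.1% at 48 h and 36.5% and 38.6% in C. Tfb1m, which methylates the small rRNA, was among the higher in both (0.45 and 1.0), while the rRNA methyltransferase gene Nsun4 was lower in C (-0.41). Translation factors had 6 higher and 1 lower of 16 at 48 h and 7 and 3 in C, where Slirp, an RNA-binding stabilizer of mitochondrial mRNAs, was at 0.33 and 0.71 and Mtres1 at 0.37 and 0.69. Mitochondrial tRNA synthetases had 2 higher and 1 lower of 20 at 48 h and 2 and 8 in C. Wars2, for tryptophan, was lower in both (-0.49 and -0.92). Of 13 genes for the expression of mitochondrial DNA, 5 were higher and 1 lower at 48 h and 5 and 3 in C, with the exonuclease gene Mgme1 at 0.44 and 1.06.

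Nuclear oxidative phosphorylation subunits, the partners of the proteins that the mitochondrial ribosome makes, had 73 of 80 called higher at 48 h (median 0.26) and 77 higher and 1 lower in C (0.50). The 13 mRNAs of the mitochondrial genome had 2 higher and 4 lower at 48 h (median -0.02) and 5 and 5 in C (-0.00). Cytosolic ribosomal proteins had 56 higher and 2 lower of 78 at 48 h, with a median of 0.12, and 73 and 1 in C (0.26). At 72 h after treatment, 38 of the cytosolic genes were called lower and 0 higher, against 3.88% and 4.67% of all genes.

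**Figure D5:**
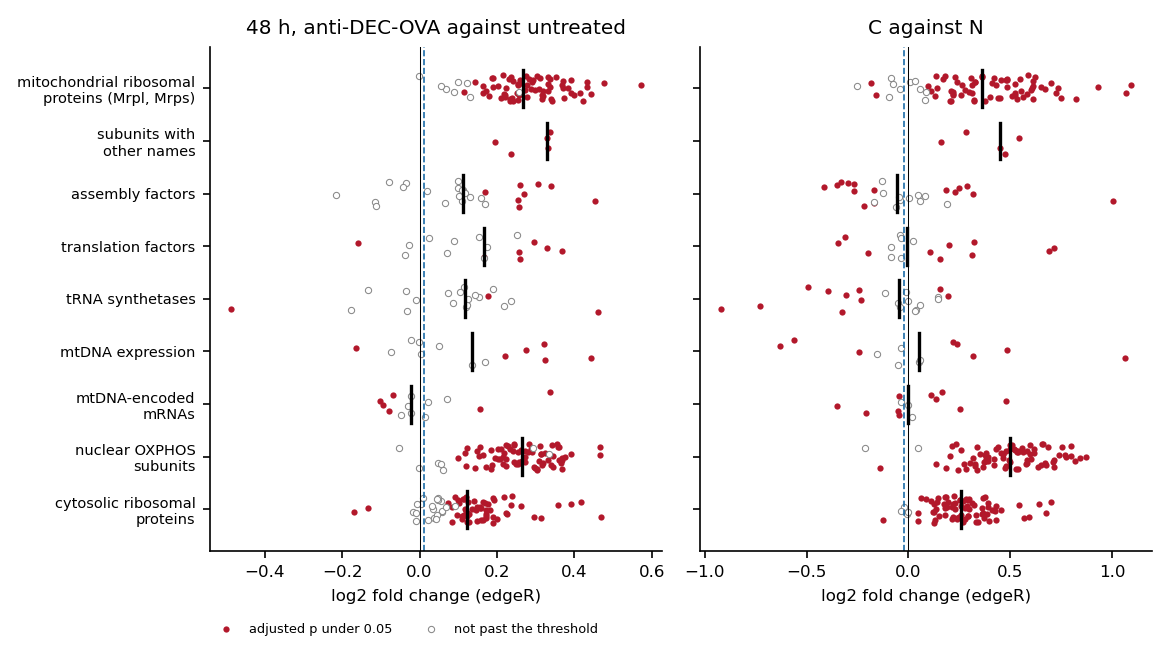
Log2 difference of each gene in the members and in the other lists, for anti-DEC-OVA against untreated mice at 48 h and for C against N cells; points are genes, black bars list medians and the dashed line the median of all genes tested. Members (0.27 and 0.36) and nuclear oxidative phosphorylation subunits (0.26 and 0.50) lie right of the line, whereas mRNAs of the mitochondrial genome lie around it (-0.02 and -0.00).

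The members are scattered over the genome, on 17 chromosomes in GRCm39 (GENCODE annotation), with the most, 11, on chromosome 11. The gene with the largest difference, Mrps18a, spans chr17:46421909-46446812 on the plus strand. Mrpl18 lies on the same chromosome (chr17:13130034-13135718, minus strand), Mrpl51 on chr6:125168764-125173232 (plus strand) and Mrps22 on chr9:98470779-98483732 (minus strand). All 4 overlap a protein-coding gene on the opposite strand, as do 39 members in all, and 4 members (Mrps6, Mrps15, Mrps24 and Mrps34) overlap one on the same strand, where UMIs are harder to assign. For 6 members another protein-coding gene that does not overlap them starts within 1000 bases upstream, in the other direction. Of the 5 such partners tested, 1 was called higher and 2 lower at 48 h. Pairs that overlap at their starts, such as Mrpl46 and Mrps11, are not in this count.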

How the data were processed

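GC B cells of hashtagged mice were sequenced with a droplet-based 5' kit. The authors made the matrices with Cell Ranger (8.0.1 in the file headers, 6.0.1 in the submitters' processing notes, which also name Seurat 5.1.0) against mm39 and deposited them as raw UMI counts, without normalization. Of the authors' tables, the lists of mice and the contig annotations were also read. Other pools of the series were not used here, and a few genes of the lists are not reported here.

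Cells were assigned to mice by HTODemux in Seurat 5.3.0 (positive quantile 0.99), which removed cells with hashtags of more than 1 mouse (1936 in the larger and 2705 in the smaller time course pool), and no further doublet caller was run. After exclusion of cells with fewer than 200 genes or 10% or more UMIs from mitochondrial genes, 23698 cells remained in the time course and 11833 in C and N. The mitochondrial limit took out 350 cells of the larger and 3114 of the smaller pool. Phases came from CellCycleScoring, run on each pool separately. Counts were summed per mouse and tested with edgeR 4.0.16 in R 4.3.3 (filterByExpr, TMM, quasi-likelihood, Benjamini-Hochberg over all genes tested, threshold 0.05), with the experiment as a term in the time course and the mouse as a block in C and N. The numbers pair C and N because they mark the same animals, and their deviations from the group means correlated by 0.13 to 0.47 in the 7 mice. Listed mice with almost no hashtag counts gave no cells. The p-values measure the spread between these mice only. On simulated counts, 177 of 200 changed genes were recovered with 7 false calls at 48 h, and 190 of 200 with 12 for C and N. The planted changes were larger than the members' median difference in either comparison and touched few of the genes. No effect of experiment or mouse was planted. These rates therefore do not show how smaller changes are recovered where many genes differ.

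The text names the 12 highest and 6 lowest members at 48 h, the 6 highest and 6 lowest elsewhere, Mrpl12, Mrps12, Mrpl58 and Mrps36, and up to 3 genes of each other list. A few others, such as Mrps24, Mrpl54, Mrpl36 and the uncalled Mrps6, Mrpl19 and Mrpl38, were named after their values were seen. Members and lists were chosen with earlier results of these data known. Role groups and lists are a hand-written sorting from general knowledge. Alternatives were DESeq2 1.42.0, other scalings and filters, cell subsets, single experiments and leaving out each mouse, numbered by its order within its group. Motifs were counted in RefSeq promoters of GRCm38.p6, a different build from the files.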

Additional observations from a re-analysis of the deposited data

Results flagged for a closer look

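In 126 sets of named members and groups with 4 to 10 mice, 2 held a mouse far from the others, and chance alone gives about 1 in 20 such sets. Mrpl44 had 23.6 CPM in its lowest treated mouse at 72 h (n = 7), and Mrps18a had 214.5 CPM in its highest C sample (n = 7).

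The effect of anti-DEC-OVA differed between 48 h and 72 h for 49 members, tested as the difference itself, where 18.5% of all genes were called in that direction. The count was 11 to 17 with thinned cells, with the B1-8hi pairing required, with no term for the experiment or in a single experiment. The largest differences on the log2 scale were those of Mrpl13 (0.45), Mrps10 (0.43), Mrps22 (0.43), Mrpl12 (0.43), Mrps31 (0.43) and Mrpl16 (0.41), each with the effect at 48 h above that at 72 h.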

How the results depend on the processing

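The direction of the members' median held in each alternative run for the 48 h effect and its difference from the 72 h effect, and with 1 exception each for the change from 48 h to 72 h, C against N and the untreated mice, where the smaller experiment alone gave 0.0555. At 48 h, counts of members called higher were 45 with thinned cells (17.5% of all genes), 46 with no term for the experiment (15.5%) and 39 in the smaller experiment alone (10.7%). They were 7, 21 and 40 in G1, S and G2M cells (4.22%, 5.85% and 9.92%). The medians were 0.19 by library size only, 0.19 with B1-8hi pairing required, and 0.13, 0.14 and 0.20 in the phases. At 72 h, counts were 9 with DESeq2 (5.86% of all genes), 3 with no filter on low counts (2.50%), 2 with the B1-8hi pairing (4.22%), 8 by highest hashtag (5.36%), 10, 1 and 1 in G1, S and G2M cells, and 0 with no term for the experiment (1.06%) or in the smaller experiment alone (0.0968%). Its medians were 0.15 in G1, -0.0045 in S, -0.0081 in G2M and -0.019 in the smaller experiment.

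From 48 h to 72 h, counts called lower were 29 with thinned cells (15.4% of all genes), 40 in S cells (12.9%), 0 in G1 cells (3.95%) and 45 in the smaller experiment (13.4%). The medians were -0.24 (-0.2350) with DESeq2, -0.17 by library size only, -0.23 with upper quartile factors, -0.20 with the pairing, -0.16 with thinned cells, -0.19 in S cells, -0.18 in the larger experiment, -0.23 with only the groups compared, and reversed at 0.0045 in G1 cells. For the difference of effects, counts were 30 by library size only (12.3% of all genes), 17 with the pairing, 15 with thinned cells, 0, 5 and 16 in G1, S and G2M cells (2.02%, 2.76% and 5.86%), 17 with no term for the experiment, and 12 and 11 in the larger and smaller experiments. Its medians were 0.16 by library size only, 0.18 with the pairing, 0.18 with thinned cells, 0.0088 in G1, 0.14 in S and 0.19 in the larger experiment. In untreated mice, counts called lower were 3 with DESeq2 (2.48% of all genes), 1 with the pairing (1.89%), 2 by highest hashtag (2.20%) and 2 in the larger experiment (1.52%). For C against N, the count was 19 and the median reversed at -0.049 in G2M cells, and medians were 0.61 in G1 cells, 0.16 by library size only and 0.23 with upper quartile factors. With no replicate block pairing the mice, 65 members were called higher and 1 lower (median 0.36), against 34.0% and 35.7% of all genes. The causes were not tested.

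Leaving out each mouse in turn gave 65 to 73 calls at 48 h (median 0.23 to 0.30), 1 to 7 at 72 h (0.02 to 0.04), 61 to 72 from 48 h to 72 h (-0.28 to -0.23), 0 to 4 in untreated mice (-0.06 to -0.02), 36 to 54 for the difference of effects (0.21 to 0.27) and 64 to 66 for C against N (0.34 to 0.37). At 72 h, counts fell to 3 or fewer without any 1 of untreated mice 3, 4, 5 and 7 or treated mice 1, 2, 3, 4 and 5. In untreated mice, calls rose from 0 to 4 without mouse 8 at 10 dpi, to 2 without mouse 6 and to 1 without mouse 7 or 8 at 7 dpi, and to 1 without mouse 6 at 10 dpi.

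A named member was counted as reversed where its sign turned and it was called in at least 1 of both fits. Such reversals were seen among G1 cells for Mrps36 at 48 h (-0.0065), for Mrps31 (0.12), Mrps18a (0.0335), Mrps12 (0.0809) and Mrps36 (0.0417) from 48 h to 72 h, and for Mrps22 (-0.10), Mrps12 (-0.11) and Mrps36 (-0.16) in the difference of effects. Mrpl3 from 48 h to 72 h reversed with thinned cells (0.17). In C against N, Mrpl19 (0.32), Mrps18b (0.28) and Mrpl38 (0.41) reversed in G1 cells, Mrps18b in S cells (0.0574) and Mrps36 in G2M cells (-0.13). The other values of named members numbered 2752 with the same call, sign changes of values called in neither fit included, 222 no longer called and 56 newly called. Depth limits Mrpl53, at about 2 CPM, and N cells in G2M.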
